A study of Homo sapiens with 2 samples.

Results

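Described here are 39 genes of the unfolded protein response and the integrated stress response, of 29972 human genes measured in xenografts of the cell line NCI-N87, which derives from a human gastric carcinoma and carries an amplified ERBB2 (HER2) gene. The members were chosen as a list of symbols, and all 39 were found in the table. 1 tumour was refractory to trastuzumab emtansine (T-DM1), a HER2 antibody that carries a microtubule poison, given every 3 weeks for 18 weeks. 1 tumour had no treatment. Both were grown under the skin of nude mice, hosts that lack mature T cells, from the same line. The labels give neither the age of the tumours at collection nor the dose, so treatment and tumour age cannot be told apart. Polyadenylated RNA was sequenced from 1 library per group, so no difference below has a replicate check and no test across samples was possible.

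The endoplasmic reticulum (ER) folds secreted and membrane proteins, and misfolded protein there is sensed by 3 membrane proteins, each with a branch of its own. PERK (EIF2AK3) phosphorylates the translation factor eIF2, which slows protein synthesis and favours translation of the transcription factor ATF4, and other kinases reach the same step after loss of amino acids or haem or on double-stranded RNA. IRE1 (ERN1) splices XBP1 mRNA into the form that encodes an active factor, and ATF6 is cut in the Golgi to free its own factor. ATF4 is known for genes of amino acid supply and of stress-induced death, XBP1 for co-chaperones and ER-associated degradation, and ATF6 for the abundant ER chaperones. A table of mRNA per gene measures neither eIF2 phosphorylation, nor XBP1 splicing, nor ATF6 cleavage. Members were put in the branch they are best known for, 18 with ATF4, 8 with XBP1 and 13 with ATF6, although XBP1 and ATF6 share many targets.

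Levels are counts scaled by library size (CPM), and log2 values are log2 of CPM + 1, refractory minus untreated, which understates the change of low genes. Genes with 1 CPM or more in the higher library were described, and a call required a difference of 2-fold in those log2 values. The brackets after a ratio are its 95% interval for counting error alone, since PCR reads with no molecular identifier can repeat a molecule. The refractory library held 59902732 counts and the untreated library 75722126, and all 39 members were at 1 CPM or more in both. The 6 markers fixed for the gastric epithelial line, among them EPCAM, KRT8 and ERBB2, were all described, with summed levels of 13964 CPM in the refractory and 14406 CPM in the untreated tumour. Of 4 plasma and B cell markers MZB1 had 0 counts in both libraries. CD79A had 3 counts in the refractory and 280 in the untreated library. The fibroblast markers COL1A2, COL3A1 and DCN had 0 counts in both libraries, and the 5 of that list summed to 2.06 CPM in the refractory and 2.94 CPM in the untreated tumour. The 4 endothelial markers summed to 0.286 CPM in the refractory and 1.90 CPM in the untreated tumour, with CDH5 at 0 counts in both. The 4 leukocyte markers summed to 127 CPM in the refractory and 31.3 CPM in the untreated tumour. Nearly all of it was LYZ, which gastric epithelium also makes, at 95.9 CPM in the refractory and 27.2 CPM in the untreated tumour, and CD68, at 29.2 CPM in the refractory and 3.62 CPM in the untreated tumour. PTPRC, the defining one, had 17 counts in the refractory and 5 in the untreated library. The table holds human genes, and the part of host cells or of CD68 and LYZ in the values below was not tested.

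The ATF4 branch held all 4 members that differed by 2-fold. TRIB3, DDIT3 and PPP1R15A, effectors of late or feedback stress signalling, were higher in the refractory tumour, and PHGDH, the first enzyme of serine synthesis, was lower. Of all 14167 described genes 9.78% were called higher and 11.0% called lower, so 3 of 39 higher and 1 of 39 lower is no more than the background share. None of the 21 members of the XBP1 and ATF6 branches was called. The median log2 was 0.32 over the 39 members and 0.03 over all described genes, with 0.40 for the ATF4, 0.15 for the XBP1 and 0.36 for the ATF6 branch. In the refractory tumour 30 members were above and 9 below their untreated level, and 51.9% of all described genes were above theirs. With the trend of log2 over length and GC content removed the medians were 0.25, 0.20 and 0.26 for the ATF4, XBP1 and ATF6 branches, and 0.23 over all members.

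**Figure D1:**
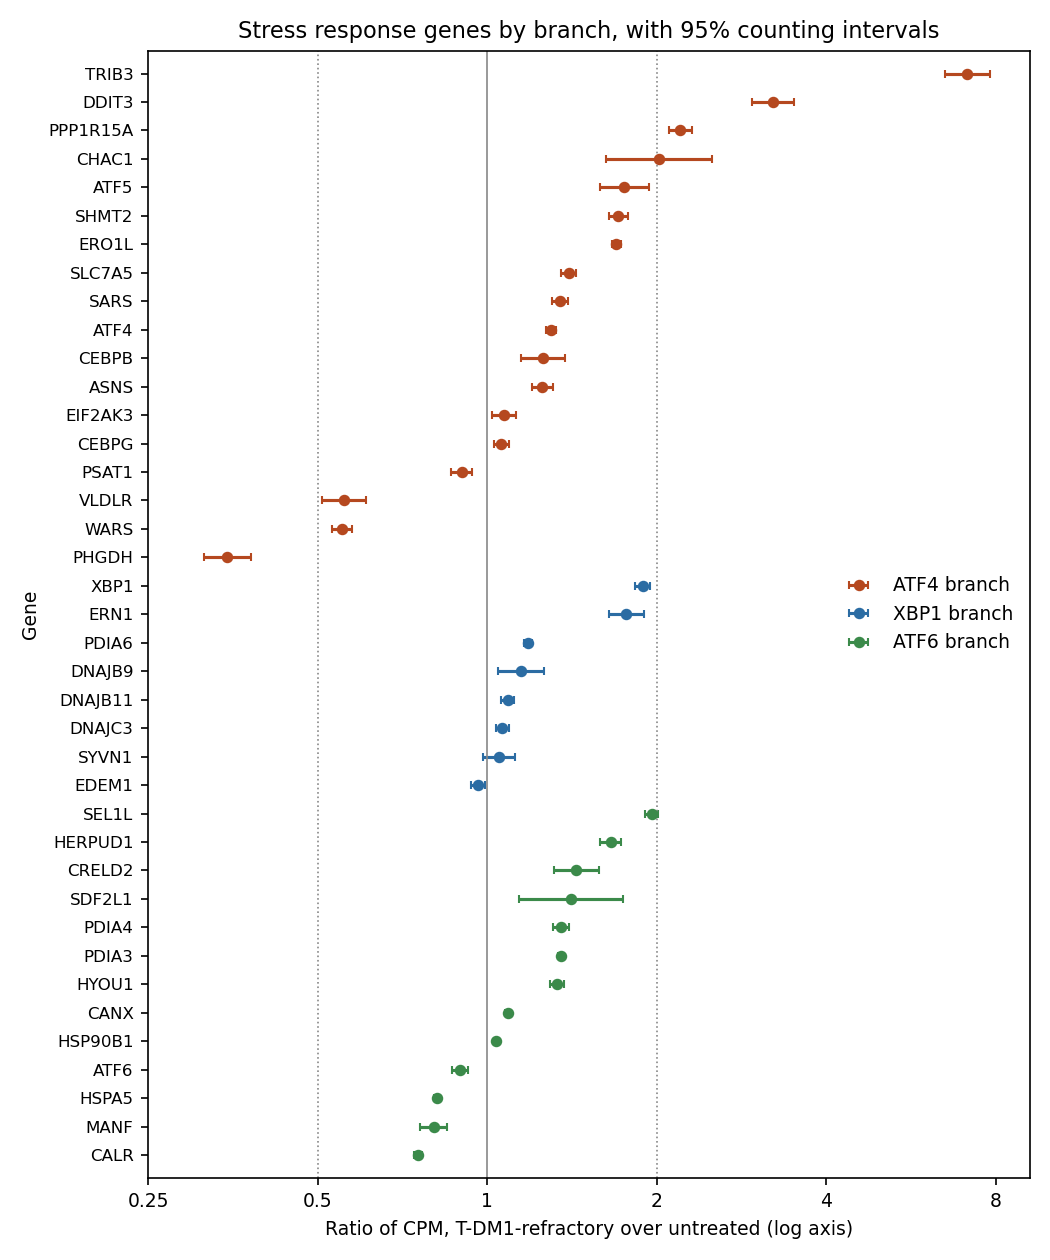
Ratio of CPM, refractory over untreated, for each of the 39 members (points, log axis), with 95% counting intervals (bars) and dotted lines at 0.5 and 2. Effectors of the ATF4 branch reach 7.13 at the top, PHGDH stands at 0.346, and the XBP1 and ATF6 branches lie between 0.754 and 1.96.

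The branches differ in the sequence upstream of their genes, which is shown because it bears on which factor is known to act there. RefSeq promoter windows of 300 bases (250 before to 50 after a gene's start, GRCh38.p14) were found for 37 of the 39 members, and not for SHMT2 and PDIA3. Both strands were searched for the ER stress response element ERSE (CCAAT, 9 free bases, CCACG), the shorter ERSE-II (ATTGG, 1 free base, CCACG), the XBP1 element UPRE (TGACGTGG) and the C/EBP-ATF element CARE (TGATGNAA). An ERSE was found for 7 members, which are among 25 of 27326 genes with a window (0.0915%), and an ERSE-II for 3 members of 19 such genes (0.0695%). By branch, an ERSE or ERSE-II was found for 8 of 12 ATF6 members, 2 of 8 XBP1 members and 0 of 17 ATF4 members. Members had been put in the branch they are best known for, so this split is no independent support for the grouping. A CARE was found for 3 ATF4 members, ASNS, CEBPG and CHAC1, and for HERPUD1, against 4.45% of all genes. A UPRE was found for 1 member, HYOU1, where it overlaps an ERSE-II, against 0.926% of all genes. These letters are a description of the windows and not measured binding. The ERSE, ERSE-II and UPRE matches of the ATF6 and XBP1 branches are printed with the fixed letters in capitals and the free letters in lower case.
HSPA5, ERSE, chr9:125241391-125241409, minus strand: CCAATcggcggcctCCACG
HSP90B1, upstream ERSE, chr12:103930216-103930234, plus strand: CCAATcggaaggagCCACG
HSP90B1, downstream ERSE, chr12:103930321-103930339, minus strand: CCAATcgcgccgcaCCACG
CALR, ERSE, chr19:12938384-12938402, minus strand: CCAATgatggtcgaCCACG
CANX, ERSE, chr5:179698778-179698796, plus strand: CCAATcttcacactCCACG
CRELD2, ERSE, chr22:49918554-49918572, minus strand: CCAATccgagttcgCCACG
PDIA6, ERSE, chr2:10812853-10812871, minus strand: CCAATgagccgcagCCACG
XBP1, ERSE, chr22:28800603-28800621, minus strand: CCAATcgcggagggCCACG
HYOU1, upstream ERSE-II, chr11:119057380-119057390, plus strand: ATTGGaCCACG
HYOU1, downstream ERSE-II, chr11:119057274-119057284, plus strand: ATTGGaCCACG
HYOU1, UPRE, chr11:119057386-119057393, minus strand: TGACGTGG
SDF2L1, ERSE-II, chr22:21642114-21642124, minus strand: ATTGGtCCACG
HERPUD1, ERSE-II, chr16:56932025-56932035, plus strand: ATTGGgCCACG

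The windows of the 2 members with the largest log2 in each branch are printed, 1 window a gene (the first in the RefSeq table, which holds 3 for TRIB3 and 2 each for DDIT3 and XBP1), 5′ to 3′ on the gene's strand, with the fixed letters of any match in capitals. XBP1 holds an ERSE and HERPUD1 an ERSE-II and a CARE. None of the 4 motifs was found in any window of TRIB3, DDIT3, ERN1 and SEL1L, which says only that these letters are not in these windows.
TRIB3 (ATF4 branch, chr20:381045-381344, plus strand): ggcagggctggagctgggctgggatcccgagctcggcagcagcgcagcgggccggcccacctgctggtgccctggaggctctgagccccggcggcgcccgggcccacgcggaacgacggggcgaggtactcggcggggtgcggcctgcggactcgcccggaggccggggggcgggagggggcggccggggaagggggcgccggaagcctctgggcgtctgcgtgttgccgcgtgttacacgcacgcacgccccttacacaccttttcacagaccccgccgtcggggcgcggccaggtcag
DDIT3 (ATF4 branch, chr12:57520465-57520764, minus strand): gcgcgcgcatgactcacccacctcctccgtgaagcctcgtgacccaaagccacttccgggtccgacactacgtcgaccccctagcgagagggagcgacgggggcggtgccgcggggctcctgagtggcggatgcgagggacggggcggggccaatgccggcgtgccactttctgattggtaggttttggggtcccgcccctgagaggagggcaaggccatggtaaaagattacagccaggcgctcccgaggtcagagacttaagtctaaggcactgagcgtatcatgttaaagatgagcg
XBP1 (XBP1 branch, chr22:28800520-28800819, minus strand): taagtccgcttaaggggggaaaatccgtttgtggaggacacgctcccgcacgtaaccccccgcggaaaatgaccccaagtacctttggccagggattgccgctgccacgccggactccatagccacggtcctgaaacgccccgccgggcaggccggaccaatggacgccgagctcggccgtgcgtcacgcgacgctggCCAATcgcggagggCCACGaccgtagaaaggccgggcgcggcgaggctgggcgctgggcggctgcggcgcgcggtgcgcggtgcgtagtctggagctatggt
ERN1 (XBP1 branch, chr17:64130095-64130394, minus strand): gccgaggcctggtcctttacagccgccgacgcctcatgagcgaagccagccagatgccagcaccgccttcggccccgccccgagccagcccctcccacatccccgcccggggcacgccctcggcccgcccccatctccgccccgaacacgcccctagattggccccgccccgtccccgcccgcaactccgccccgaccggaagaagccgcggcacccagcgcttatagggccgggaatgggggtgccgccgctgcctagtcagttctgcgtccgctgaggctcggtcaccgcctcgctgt
SEL1L (ATF6 branch, chr14:81533804-81534103, minus strand): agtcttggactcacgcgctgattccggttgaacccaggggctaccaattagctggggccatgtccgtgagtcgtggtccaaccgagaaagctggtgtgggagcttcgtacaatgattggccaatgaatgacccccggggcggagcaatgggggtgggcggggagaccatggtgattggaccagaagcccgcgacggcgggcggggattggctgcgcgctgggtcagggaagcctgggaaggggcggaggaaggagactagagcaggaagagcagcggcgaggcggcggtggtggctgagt
HERPUD1 (ATF6 branch, chr16:56931892-56932191, plus strand): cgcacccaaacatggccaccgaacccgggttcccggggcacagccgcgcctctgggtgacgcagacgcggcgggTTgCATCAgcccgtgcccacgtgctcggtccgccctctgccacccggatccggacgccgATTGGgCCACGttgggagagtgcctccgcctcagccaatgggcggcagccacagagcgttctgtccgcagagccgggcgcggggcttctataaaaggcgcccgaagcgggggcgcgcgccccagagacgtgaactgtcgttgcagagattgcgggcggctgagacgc

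The 10 members with an ERSE or ERSE-II had log2 values of -0.41 to 0.91 with a median of 0.30, and 0 of them were called. The 27 members with a window and no such match had log2 values of -1.44 to 2.67 with a median of 0.31, and 4 of them were called. The middle of both groups was thus close. The group without the element was the wider, but it holds more members, and a range widens with their number. It also holds all 17 ATF4 members with a window. Of all described genes 20.8% were called either way, and neither group was above that share.

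The mRNAs of the 3 sensors differed by unlike amounts. EIF2AK3, which encodes PERK, stood at 49.1 CPM in the refractory tumour and 45.8 CPM in the untreated tumour, a ratio of 1.07 (1.02 to 1.13). ATF6 stood at 96.4 CPM in the refractory tumour and 108 CPM in the untreated tumour, a ratio of 0.895 (0.865 to 0.926). ERN1, which encodes IRE1, stood at 29.9 CPM in the refractory tumour and 16.9 CPM in the untreated tumour, a ratio of 1.77 (1.64 to 1.90). ERN1 was thus the sensor with the larger difference, under 2-fold, while the other sensors were within 1.5-fold of their untreated level.

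The transcription factors were all higher in the refractory tumour by CPM except ATF6, and only DDIT3 passed 2-fold. ATF4, which is controlled mainly by translation, stood at 302 CPM in the refractory tumour and 232 CPM in the untreated tumour, a ratio of 1.30 (1.27 to 1.33). Per transcript length it was the fourth most abundant of the 39 members in the refractory tumour, at 259.8 FPKM, fragments scaled by transcript length and library size, against 201 FPKM in the untreated tumour. ATF5, a related factor also induced by translation, stood at 15.9 CPM in the refractory tumour and 9.07 CPM in the untreated tumour, a ratio of 1.75 (1.59 to 1.94). CEBPB and CEBPG are basic leucine zipper partners of ATF4 and CHOP. CEBPB stood at 16.1 CPM in the refractory tumour and 12.8 CPM in the untreated tumour and CEBPG at 129 CPM in the refractory tumour and 121 CPM in the untreated tumour, with ratios of 1.26 and 1.06. XBP1 mRNA, counted without regard to splicing, stood at 161 CPM in the refractory tumour and 85.4 CPM in the untreated tumour, a ratio of 1.89 (1.83 to 1.95) that lies just under the 2-fold line with its whole counting interval.

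DDIT3 encodes CHOP, the factor of late ER stress that is linked to cell death. It stood at 30.3 CPM in the refractory tumour and 9.42 CPM in the untreated tumour, a ratio of 3.22 (2.95 to 3.51), with its coding sequence at chr12:57516809-57517475 (GRCh38). TRIB3, a pseudokinase induced by ATF4 and CHOP that feeds back on both, stood at 49.7 CPM in the refractory tumour and 6.97 CPM in the untreated tumour, a ratio of 7.13 (6.50 to 7.83), with its coding sequence at chr20:388011-396690. PPP1R15A encodes GADD34, which guides a phosphatase to eIF2 and ends the translation block. It stood at 79.8 CPM in the refractory tumour and 36.2 CPM in the untreated tumour, a ratio of 2.20 (2.10 to 2.31), with its coding sequence at chr19:48873234-48875973. All 3 were higher in the refractory tumour, and TRIB3 alone passed 4-fold. With the trend of log2 over length and GC content removed, PPP1R15A had a log2 of 0.91 in place of 1.12 and was no longer called.

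Relative to ATF4 per transcript length, TRIB3 reached 0.106 of the ATF4 FPKM in the refractory tumour and 0.0194 in the untreated tumour, and DDIT3 reached 0.172 in the refractory and 0.0669 in the untreated tumour. By FPKM DDIT3 was the member at rank 15 of 39 in the refractory and at rank 28 in the untreated tumour, and TRIB3 was at rank 25 in the refractory and 36 in the untreated tumour. In the authors' deposited table TRIB3 was the only member with a p-value under 0.05, at 0.0140, against 0.128 for DDIT3, 0.296 for PPP1R15A and 0.165 for PHGDH. That table gave a p under 0.05 to 9.49% of the described genes, and its p compares these libraries, not the conditions.

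CHAC1, an enzyme that degrades glutathione and is a sensitive ATF4 target, stood at 3.72 CPM in the refractory tumour and 1.84 CPM in the untreated tumour. Its plain ratio was 2.02 (1.63 to 2.51), and with 1 CPM added its log2 was 0.73, so it was not called. ERO1L (ERO1A), the oxidase that recharges protein disulfide isomerases and a known target of both CHOP and hypoxia, stood at 449.6 CPM in the refractory tumour and 265 CPM in the untreated tumour, a ratio of 1.70 (1.67 to 1.73). On its chromosome the 10 described genes on each side had a median log2 of -0.60, against 0.76 for ERO1L, so it stood 1.36 above its neighbours. VLDLR, a lipoprotein receptor induced by ATF4 and by hypoxia, was lower, at 11.7 CPM in the refractory tumour and 21.1 CPM in the untreated tumour, a ratio of 0.558 (0.510 to 0.610). Its neighbours had a median log2 of -0.87, close to its own -0.79.

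The amino acid genes of the ATF4 branch split. PHGDH stood at 9.12 CPM in the refractory tumour and 26.4 CPM in the untreated tumour, 2.89-fold lower (2.63 to 3.19), with its coding sequence at chr1:119712023-119744040. PSAT1, the next enzyme of serine synthesis, stood at 61.6 CPM in the refractory tumour and 68.4 CPM in the untreated tumour, a ratio of 0.901 (0.864 to 0.940). SHMT2, which turns serine into glycine in mitochondria, stood at 109.5 CPM in the refractory tumour and 64.0 CPM in the untreated tumour, a ratio of 1.71 (1.65 to 1.78). Of the other serine genes, named after their values were seen, PSPH, the last enzyme of serine synthesis, stood at 19.3 CPM in the refractory and 12.8 CPM in the untreated tumour. SHMT1, the cytosolic form of SHMT2, stood at 10.8 CPM in the refractory and 7.19 CPM in the untreated tumour. PHGDH was thus lower and PSAT1 near level, while PSPH, SHMT1 and SHMT2 were higher by less than 2-fold.

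ASNS, which makes asparagine and is a standard ATF4 target, stood at 68.7 CPM in the refractory tumour and 54.9 CPM in the untreated tumour, a ratio of 1.25 (1.20 to 1.31). SLC7A5, the leucine transporter LAT1, stood at 143 CPM in the refractory tumour and 103 CPM in the untreated tumour, a ratio of 1.40 (1.35 to 1.44). SARS, the seryl-tRNA synthetase, stood at 129.9 CPM in the refractory tumour and 96.5 CPM in the untreated tumour, a ratio of 1.35 (1.30 to 1.39). WARS, the tryptophanyl-tRNA synthetase, which interferon also induces, was lower, at 54.9 CPM in the refractory tumour and 99.5 CPM in the untreated tumour, a ratio of 0.552 (0.530 to 0.575). Of these 7 genes of amino acid supply 4 were above and 3 below their untreated level, 0 were called higher and 1 lower. The other 9 regulators and effectors of the branch, ATF4 itself included and the sensor and VLDLR left out, were all above their untreated level. Their median log2 was 0.75 against 0.32 for the amino acid genes. Of those left out, EIF2AK3 was above and VLDLR below its untreated level. This grouping by role was chosen after the values were seen, and 51.9% of all described genes were above their untreated level.

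**Figure D2:**
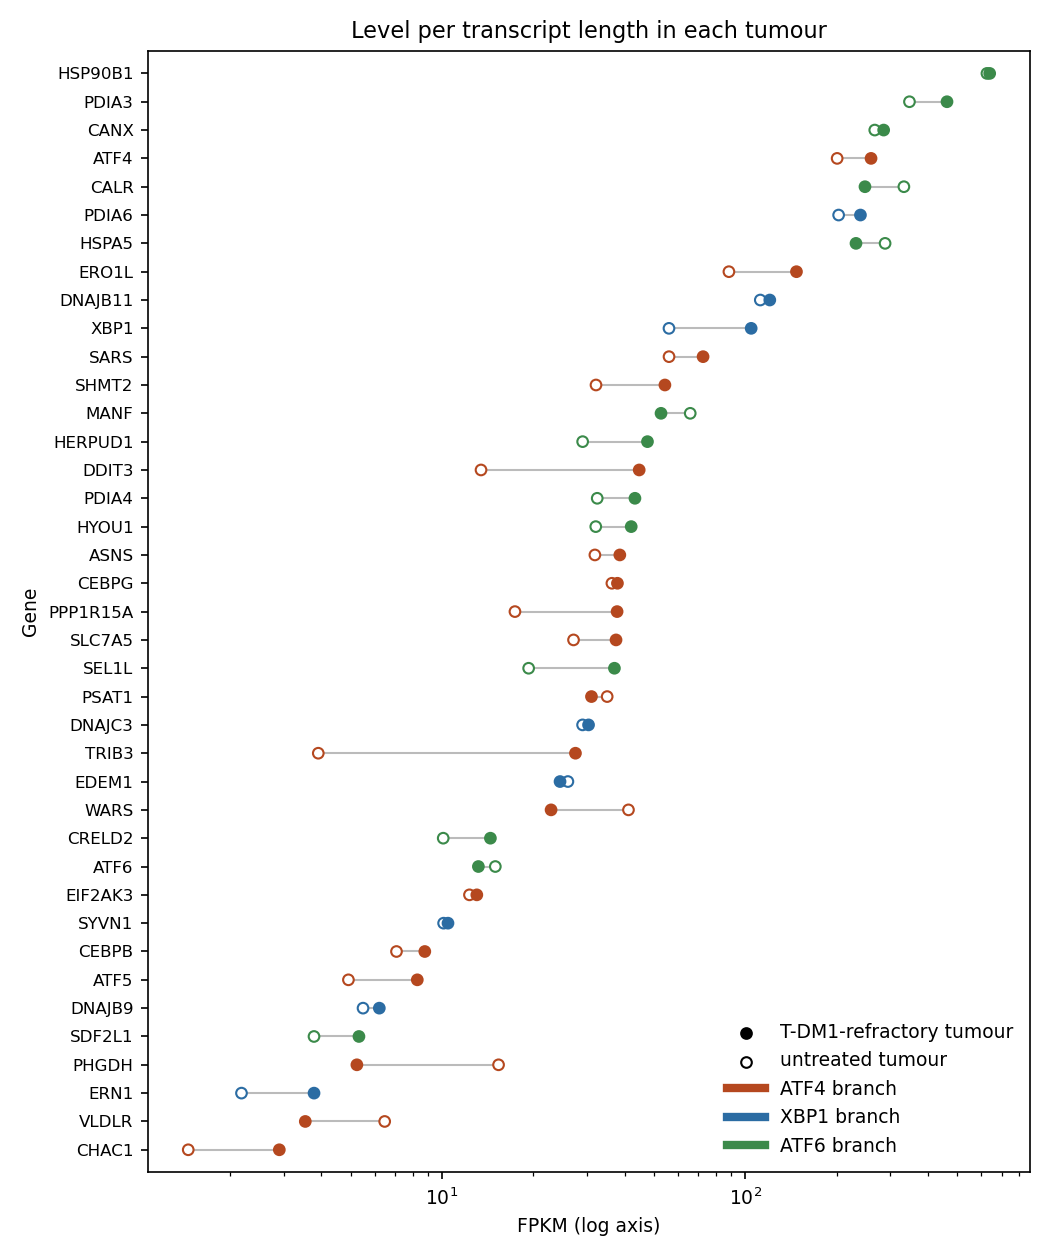
FPKM (log axis) of the 39 members in the refractory tumour (filled) and the untreated tumour (open), in the order of the refractory level, coloured by branch. The ER chaperones at the top shift little, and the connecting lines of TRIB3, DDIT3 and PHGDH are long, DDIT3 at refractory rank 15, TRIB3 at 25 and PHGDH at 36.

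In the XBP1 branch the co-chaperones and degradation factors stayed within 1.2-fold of their untreated level. DNAJB9 (ERdj4), a co-chaperone of BiP that also restrains IRE1, stood at 14.1 CPM in the refractory tumour and 12.3 CPM in the untreated tumour, a ratio of 1.15 (1.04 to 1.26). DNAJB11 (ERdj3) stood at 170.1 CPM in the refractory tumour and 156 CPM in the untreated tumour and DNAJC3 (p58IPK), which acts as a BiP co-chaperone and was first known as a kinase inhibitor, at 163 CPM in the refractory tumour and 153 CPM in the untreated tumour, with ratios of 1.09 and 1.06. PDIA6, a disulfide isomerase, stood at 488 CPM in the refractory tumour and 412 CPM in the untreated tumour, a ratio of 1.18 (1.16 to 1.20). EDEM1, which hands misfolded glycoproteins to degradation, stood at 144 CPM in the refractory tumour and 149.8 CPM in the untreated tumour, a ratio of 0.963 (0.936 to 0.990). SYVN1, the ubiquitin ligase HRD1, stood at 29.2 CPM in the refractory tumour and 27.8 CPM in the untreated tumour, and its counting interval of 0.985 to 1.12 was the only one of the 39 that held 1. Among the members put in this branch the larger ratios were those of ERN1 and XBP1 themselves. This depends on the assignment, since XBP1 and ATF6 share many targets. The degradation genes HERPUD1 and SEL1L, put with ATF6, had ratios of 1.66 and 1.96.

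In the ATF6 branch the most abundant ER chaperones went both ways by small amounts. HSP90B1 (GRP94), the ER member of the HSP90 family and the most abundant of the 39 by FPKM in both tumours, stood at 1660.5 CPM in the refractory tumour and 1602 CPM in the untreated tumour, a ratio of 1.04 (1.03 to 1.05). HSPA5 (BiP), the ER HSP70 that binds the sensors and is the standard readout of the pathway, stood at 861 CPM in the refractory tumour and 1056 CPM in the untreated tumour, a ratio of 0.815 (0.806 to 0.824). CALR and CANX are the lectin chaperones of glycoproteins, the first soluble and the second in the membrane. CALR stood at 406 CPM in the refractory tumour and 539 CPM in the untreated tumour, a ratio of 0.754 (0.742 to 0.766), and CANX at 1343 CPM in the refractory tumour and 1235 CPM in the untreated tumour, a ratio of 1.09 (1.08 to 1.10). Thus HSPA5 and CALR were lower and HSP90B1 and CANX within 1.1-fold, all far from 2-fold. CALR lies among genes with a median log2 of -0.61, and relative to those its own value was 0.20. HSPA5 lies among genes with a median log2 of 0.23, and relative to those its own value was -0.53 in place of -0.30.

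HYOU1, a large HSP70-like exchange factor of BiP, stood at 179 CPM in the refractory tumour and 135 CPM in the untreated tumour, a ratio of 1.33 (1.30 to 1.37). The disulfide isomerases PDIA3, which works with the lectin chaperones, and PDIA4 stood at 1291 CPM in the refractory tumour and 956 CPM in the untreated tumour, and at 116 CPM in the refractory tumour and 86.0 CPM in the untreated tumour, with ratios of 1.35 and 1.35. Among other secreted or luminal members, SDF2L1 stood at 3.13 CPM in the refractory tumour and 2.22 CPM in the untreated tumour, a ratio of 1.41 (1.14 to 1.75). CRELD2 stood at 16.8 CPM in the refractory tumour and 11.6 CPM in the untreated tumour, a ratio of 1.44 (1.31 to 1.58). MANF, a secreted ER stress protein, stood at 34.5 CPM in the refractory tumour and 42.9 CPM in the untreated tumour, a ratio of 0.804 (0.761 to 0.850). The folding group of the 2 branches, 14 chaperones, co-chaperones and isomerases, held 11 members above and 3 below their untreated level, 0 called, with log2 values of -0.41 to 0.49. Summed over that group the level was 6746 CPM in the refractory and 6399 CPM in the untreated tumour.

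The 2 degradation genes of the ATF6 branch were further up. HERPUD1, which organises the degradation complex in the membrane, stood at 78.3 CPM in the refractory tumour and 47.2 CPM in the untreated tumour, a ratio of 1.66 (1.59 to 1.73). SEL1L, the partner of HRD1, stood at 233 CPM in the refractory tumour and 119 CPM in the untreated tumour, a ratio of 1.96 (1.91 to 2.01), with its coding sequence at chr14:81476972-81533744. SEL1L missed the call at a log2 of 0.96, and with the length and GC trend removed it passed, at 1.26. Its partner SYVN1, described above, did not share the difference. At a threshold of 1.5-fold 11 members were higher and 3 lower, against 19.4% higher and 18.9% lower among all described genes, and by branch 7, 2 and 2 of those higher members belonged to ATF4, XBP1 and ATF6. The counting interval lay above 1 in 29 of the 39 members and below 1 in 9. Among all described genes it lay above 1 in 45.4% and below 1 in 41.5%, so members lay above 1 more often. Most described genes thus had an interval that left out 1. Such intervals hold counting error alone at this depth and do not separate conditions. In bulk tumours fewer cells of a type and less RNA per cell cannot be told apart.

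**Figure D3:**
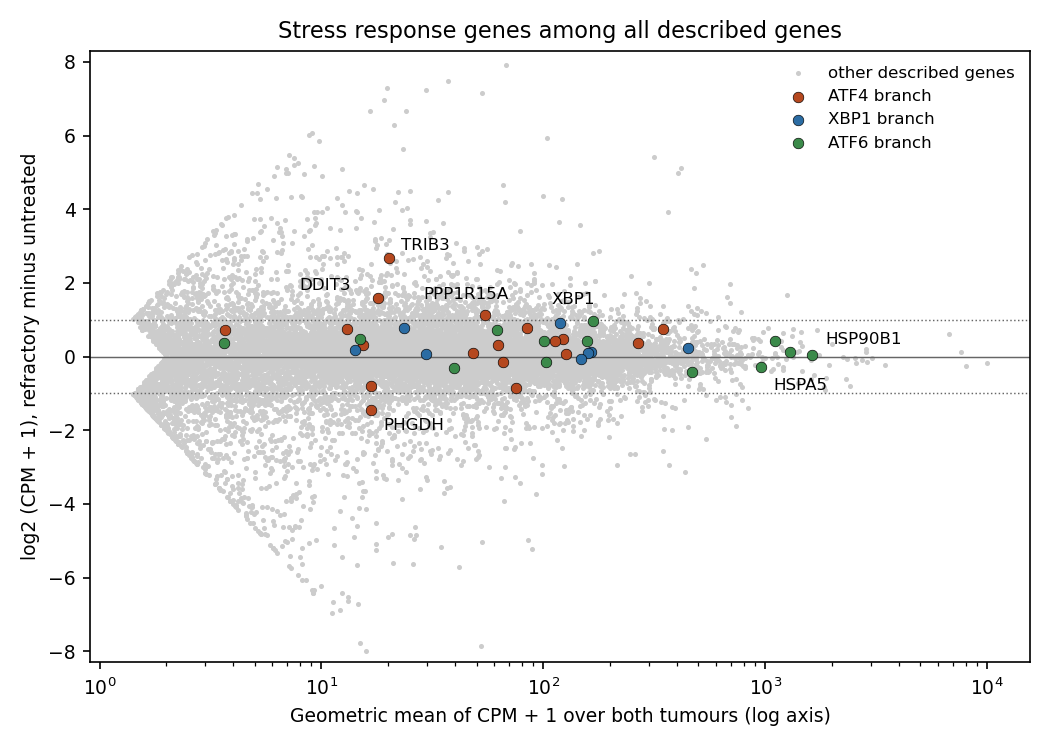
Difference of log2 (CPM + 1), refractory minus untreated, against the geometric mean of CPM + 1 in both tumours (log axis) for all 14167 described genes (grey) and the 39 members (coloured by branch), with dotted lines at a 2-fold difference. The members lie near 0 at high levels, and TRIB3, DDIT3, PPP1R15A and PHGDH lie outside the lines.

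Other genes of the pathway were taken from 12 lists, chosen with earlier results of these data known. Among 32 described further targets of ATF4 and CHOP 7 were at least 2-fold higher and 3 lower, with a median log2 of 0.64. Those 7 are 21.9% of the list, against 9.78% called higher and 11.0% called lower among all described genes. These background shares apply to each list below. Because of how the lists were chosen, a share above the background is no independent support. ATF3, a stress-induced factor downstream of ATF4, stood at 47.7 CPM in the refractory tumour and 8.87 CPM in the untreated tumour, a ratio of 5.37 (4.94 to 5.85). VEGFA, an angiogenic factor, which hypoxia also induces, stood at 347 CPM in the refractory tumour and 82.9 CPM in the untreated tumour, a ratio of 4.19 (4.07 to 4.31). The other higher genes, chosen after their values were seen, were CTH, SESN2, BBC3, DDIT4 and TNFRSF10B, with log2 values of 1.69, 1.66, 1.46, 1.10 and 1.01. SESN2 and DDIT4 restrain the growth kinase mTORC1, CTH makes cysteine, and BBC3 and TNFRSF10B encode the death proteins PUMA and DR5.

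The lower genes of that list serve amino acid transport and folate metabolism. SLC6A9, the glycine transporter GLYT1, stood at 2.29 CPM in the refractory tumour and 17.8 CPM in the untreated tumour, 7.78-fold lower (6.52 to 9.35). SLC1A5, the glutamine and neutral amino acid transporter ASCT2, stood at 114 CPM in the refractory tumour and 370.1 CPM in the untreated tumour, 3.25-fold lower (3.17 to 3.34). ALDH1L2, a mitochondrial folate enzyme of the serine list, had 7 counts in the refractory and 106 in the untreated library and was 11.8-fold lower (5.51 to 29.9). Its log2 was -1.09, and it was not called with the length and GC trend removed, with 5 CPM added or on the deposited FPKM, at -0.79, -0.32 and -0.23. With PHGDH it made 2 lower and 0 higher of 11 described genes in the list of serine, glycine and one-carbon enzymes, whose median log2 was 0.28. The 3 lower of 32 are near the background of 11.0%. Of the 32 described targets 24 were above and 8 below their untreated level, and the other genes of amino acid supply went both ways. CTH was above its untreated level, at a log2 of 1.69. SLC7A11, PYCR1, SLC3A2, ALDH18A1, PSPH and MTHFD2 were also above theirs, at 0.86, 0.81, 0.80, 0.58, 0.56 and 0.42. The transporter genes SLC38A2 and SLC1A4 were below theirs, at -0.31 and -0.28.

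Hypoxia genes were higher alongside these values. Of 13 described genes of a hypoxia list 8 were at least 2-fold higher and 0 lower, against 9.78% higher among all described genes. The list summed to 3105 CPM in the refractory and 1237 CPM in the untreated tumour. The largest part of that difference was EGLN3, at 1053 CPM in the refractory and 3.41 CPM in the untreated tumour. NDRG1 stood at 478 CPM in the refractory and 65.1 CPM in the untreated tumour. The neighbours of EGLN3 on chromosome 14 had a median log2 of 2.65, relative to which its own log2 was 5.25 in place of 7.90. VEGFA stands in both lists, and without it the further ATF4 and CHOP targets had 6 higher and 3 lower of 31 and a median log2 of 0.61. The part of hypoxia in the remaining values was not tested.

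Upstream of ATF4, the eIF2 kinases, eIF2 and eIF2B subunits and regulators held 0 higher and 1 lower of 16, with a median log2 of 0.12. The lower gene was EIF2AK2, the double-stranded RNA kinase PKR, which interferon induces, at 129.8 CPM in the refractory tumour and 262 CPM in the untreated tumour, 2.02-fold lower (1.96 to 2.07). Its log2 of -1.01 lies at the threshold, and it was not called with 5 CPM added (-0.98), with the length and GC trend removed (-0.77) or relative to its neighbours (-0.69). Of the 20 cytosolic aminoacyl-tRNA synthetases, many of which ATF4 induces, 1 was higher and 0 lower, with a median of 0.19. VARS stood at 73.7 CPM in the refractory tumour and 31.8 CPM in the untreated tumour, a ratio of 2.32 (2.20 to 2.44), while the genes around it had a median log2 of 1.29.

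The ER lists downstream of XBP1 and ATF6 were near level. The translocon, signal peptidase and COPII list, which serves entry into and exit from the ER, had 2 higher and 0 lower of 25 and a median log2 of 0.18. SRP54, the GTPase of the signal recognition particle, stood at 2276 CPM in the refractory tumour and 70.5 CPM in the untreated tumour, a ratio of 32.3 (31.4 to 33.2), in a stretch of chromosome 14 whose neighbouring genes had a median log2 of 2.27. SSR1, a subunit of the translocon-associated complex, stood at 335 CPM in the refractory tumour and 155 CPM in the untreated tumour, with a neighbour median of 0.78, relative to which its log2 was 0.33 in place of 1.11. Further ER-associated degradation genes had 0 higher and 0 lower of 16 and a median of 0.15, UBXN4 being the most abundant at 344 CPM in the refractory and 349.8 CPM in the untreated tumour.

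Further ER chaperones and oxidoreductases had 2 higher and 2 lower of 23 and a median log2 of 0.05. TXNDC5, a disulfide isomerase, stood at 186 CPM in the refractory tumour and 57.6 CPM in the untreated tumour, with a neighbour median of 0.95, and FKBP2, a prolyl isomerase, at 26.2 CPM in the refractory and 12.6 CPM in the untreated tumour. FKBP2 lay at the threshold, at a log2 of 1.004, and fell short of it under all 3 other scalings (0.978, 0.985 and 0.997), with 5 CPM added (0.83), with the length and GC trend removed (0.75) and relative to its neighbours (0.49). The lower ones were ERO1LB, the second ER oxidase, at 1.89 CPM in the refractory and 8.08 CPM in the untreated tumour, and PDIA2, an isomerase of pancreas, at 0.286 CPM in the refractory and 2.83 CPM in the untreated tumour. With 5 CPM added neither was called, at -0.93 for ERO1LB and -0.57 for PDIA2, and on the deposited FPKM ERO1LB was at -0.96. Genes of mucus-secreting epithelium had 3 higher and 0 lower of 6 described, with a median of 0.955, against 9.78% higher among all described genes. SPDEF, a goblet cell transcription factor, stood at 8.63 CPM in the refractory tumour and 0.170 CPM in the untreated tumour, a ratio of 50.7 (29.4 to 95.9). Its neighbours on chromosome 6 had a median log2 of 1.14, relative to which its own log2 was 1.90 in place of 3.04. AGR2, a mucin-folding isomerase, stood at 165 CPM in the refractory tumour and 60.1 CPM in the untreated tumour, a ratio of 2.74 (2.65 to 2.84). The third was ERN2, named after its value was seen, the IRE1 form of gut epithelium, at 17.1 CPM in the refractory and 7.46 CPM in the untreated tumour, with a log2 of 0.98 relative to its neighbours in place of 1.10. Of 6 known substrates of IRE1-dependent mRNA decay 4 were described, with 0 higher and 1 lower, SCARA3 at 4.15 CPM in the refractory and 10.8 CPM in the untreated tumour, and a median of -0.835. SCARA3 was not called on the deposited FPKM (-0.93) or with 5 CPM added (-0.79), against a log2 of -1.19. BLOC1S1, a substrate known from many cell types and named after its value was seen, stood at 22.9 CPM in the refractory and 19.8 CPM in the untreated tumour, a log2 of 0.20. It was most of the summed level of that list, 29.9 CPM in the refractory and 36.9 CPM in the untreated tumour. The median of the 4, with 1 above and 3 below 0, thus rests mainly on low genes.

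As lists outside the ER, mitochondrial unfolded protein response genes had 0 higher and 0 lower of 8 with a median log2 of 0.26, HSPD1, the mitochondrial HSP60, standing at 948 CPM in the refractory and 811 CPM in the untreated tumour. Cytosolic heat shock genes had 2 higher and 1 lower of 12 with a median of -0.16. HSPA1B stood at 128 CPM in the refractory and 39.7 CPM in the untreated tumour and HSPA1A at 289 CPM in the refractory and 137 CPM in the untreated tumour, near-identical copies whose reads can be divided between them, among neighbours with medians of 1.25 and 1.29. DNAJA1, an HSP40 co-chaperone, stood at 184 CPM in the refractory and 391 CPM in the untreated tumour among neighbours with a median of -0.87. Relative to their neighbours HSPA1A and VARS, both on chromosome 6, turned below 0.

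**Figure D4:**
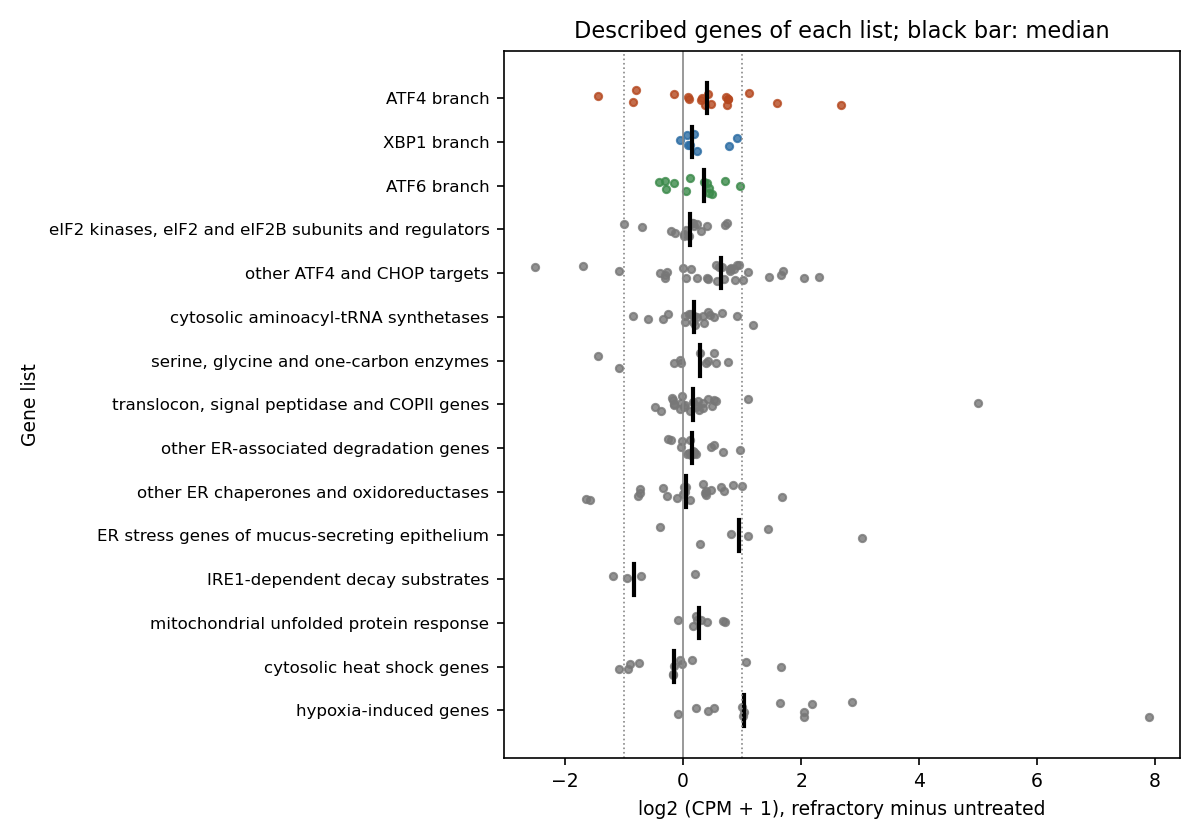
Difference of log2 (CPM + 1), refractory minus untreated, for the described genes of the 3 branches (coloured) and of the 12 other lists (grey), with the median of each list as a black bar and dotted lines at a 2-fold difference. Further ATF4 and CHOP targets spread on both sides, while the ER-associated degradation list stays between the lines.

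Limits of single members follow from their loci. Per GENCODE 29, 20 members share exonic bases with a gene on the opposite strand, and the sources used here do not say whether reads were counted by strand. DDIT3 shares 355 bases, 27.2% of its exonic bases, with MARS, the methionyl-tRNA synthetase gene, which stood at 96.3 CPM in the refractory tumour and 82.0 CPM in the untreated tumour. ATF5 shares 626 bases, 21.2%, with NUP62 on the opposite strand, which stood at 63.6 CPM in the refractory and 49.1 CPM in the untreated tumour. PDIA6 shares 25.2% with ATP6V1C2, at 5.16 CPM in the refractory and 17.1 CPM in the untreated tumour. ASNS shares 1985 bases, 44.6%, with AC079781.5 on the same strand, for which no level was found. TRIB3, PPP1R15A and PHGDH share none with an annotated gene. For 7 members the annotation holds pseudogenes named after them, ATF4, ASNS, PSAT1, SLC7A5, WARS, XBP1 and PDIA3, with which reads can be divided. PDIA3P1 had 523 counts in the refractory and 1357 in the untreated library, beside 76576 in the refractory and 73054 in the untreated library for PDIA3.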

How the data were processed

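1 library was sequenced from each of 2 tumours. Groups came from the title and treatment labels. The authors deposited 1 table of 29972 human genes. The authors give expected counts, which need not be whole, and the FPKM, log2 fold change and p-value columns are also theirs, per the file headers. The submitters' processing notes name RSEM 1.2.28, STAR 2.7.0e, edgeR 3.26.8 and bcl2fastq, with the builds GRCh38 and GRCm38. Their roles, the annotation, filters, strand handling and the dispersion behind the p-value were not given in the sources used here.

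Counts were rounded and scaled by TMM (edgeR 4.0.16, R 4.3.3; factors 0.9906 refractory, 1.0095 untreated). The pseudocount was 1 CPM. Intervals are Clopper-Pearson, from 2 Poisson counts given their sum, in scipy 1.17.1. The calculation was tested on simulated data. The members and lists were chosen with earlier results of these data known. All members are named. Of each other list up to 2 genes past 2-fold with the largest change in each direction are named, or the most abundant if none passed. Other genes were chosen after their values were seen, as was the grouping by role. Alternatives were other scalings (DESeq2 1.42.0 size factors, total count, and total count less the top 50 genes), pseudocounts of 0.1 and 5 CPM, no filter, 10 CPM, FPKM, thresholds of 1.5-fold and 4-fold, other member sets, and the medians of 10 bins each of length and GC content subtracted over 10 rounds. Length came from counts over FPKM, and GC from GENCODE 29 transcripts. Subtracting the median of 10 neighbours on each side was added after the data were seen.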

Additional observations from a re-analysis of the deposited data

How the results depend on the processing

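DDIT3, TRIB3 and PHGDH were called under every alternative that kept the 2-fold threshold. The 3 other scalings changed no call and no sign among the 39 members, and moved the median of all described genes by less than 0.1. At 1.5-fold 11 members were higher and 3 lower, and at 4-fold 1 was higher (TRIB3) and 0 lower. Removing the length and GC trend lowered the ATF4 median to 0.25 and the ATF6 median to 0.26, exchanged PPP1R15A for SEL1L among the higher calls, and turned the signs of SYVN1 and ATF6. With 5 CPM added the ATF6 median was 0.17. Without its amino acid genes the ATF4 median was 0.73, and the ATF6 and XBP1 branches joined had a median of 0.19. Relative to chromosomal neighbours the ATF6 median was 0.20, ERO1L joined the higher calls, 2 members were lower (PHGDH and WARS), VLDLR, EDEM1, SYVN1 and CALR changed sign, and HSPA1A and VARS turned to -0.22 and -0.10. HSPA5 and MANF stood at -0.53 and -0.58 relative to their neighbours, in place of -0.30 and -0.31. The cause of these shifts was not tested. The medians of the XBP1 branch and of all members moved by less than 0.1 under every alternative run. Of 614 single gene values under an alternative, 113 moved by 0.1 or more on the log2 scale without a called gene changing sign. No paired analysis was possible because each group has 1 library. Counting intervals were widest for the lowest members, CHAC1 and SDF2L1, and the spread between tumours is unknown.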

Other observations

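Paralogues within the stress response differed by unlike amounts, given as values chosen after they were seen and with no test. PPP1R15A, the inducible subunit that guides a phosphatase to eIF2, stood at 79.8 CPM in the refractory and 36.2 CPM in the untreated tumour, while PPP1R15B, its constitutive counterpart, stood at 196 CPM in the refractory and 189.5 CPM in the untreated tumour. Per transcript length the first was 0.964 of the second in the refractory tumour and 0.453 in the untreated tumour. The ER oxidases went opposite ways, ERO1L at 449.6 CPM in the refractory and 265 CPM in the untreated tumour and ERO1LB at 1.89 CPM in the refractory and 8.08 CPM in the untreated tumour. DDIT3 per transcript length was 0.193 of HSPA5 in the refractory tumour and 0.0465 in the untreated tumour, the ratio of a late effector to the standard chaperone.

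SLC7A11, the cystine transporter, stood at 204 CPM in the refractory and 112 CPM in the untreated tumour, a ratio of 1.82. SLC3A2, its partner subunit, stood at 141 CPM in the refractory and 80.6 CPM in the untreated tumour, a ratio of 1.75, whereas SLC1A5 and SLC6A9 were lower. The alanyl-tRNA and cysteinyl-tRNA synthetase genes AARS and CARS had ratios of 1.89 and 1.60, against 0.552 for WARS. P4HB, the founding disulfide isomerase, stood at 621 CPM in the refractory and 345 CPM in the untreated tumour, a ratio of 1.80, among neighbours with a median log2 of 0.49.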
